A study of Mus musculus with 4 samples.

Results

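The livers of 21-month-old mice were compared with those of 13-month-old mice, a passage from middle to old age in this species. Both ages are male C57BL/6J mice, a common inbred strain, fed a low-fat diet without restriction, and the series also holds arrays at 4 and 8 months from the same strain, sex and diet. Each age is 1 array hybridised with the pooled liver RNA of 6 mice, so 2 of the 4 arrays enter the comparison. The pool averages its mice, and the spread between mice cannot be seen. With no replicate array there is no test, and every value below is the size of a difference between 2 pools, whose precision is limited by the number of arrays. The sources used here do not give the hour at which livers were collected, nor whether the younger and older mice were of one cohort.

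The compared quantity is the deposited log2 expression value at 21 months minus that at 13 months, where a difference of 1 is 2-fold. Each gene is represented by 1 probe set, a group of short probes for a transcript. Probe sets with a single gene symbol were used, the brightest one was taken for each gene, and genes with a mean of at least 3.74, the median of all probe sets, were kept. This left 11587 of 18193 genes. Levels are given in the order 4, 8, 13 and 21 months. A level is compared across ages for 1 gene and not between genes, because probe sets differ in how brightly they bind.

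The liver makes most plasma proteins, oxidises and synthesises fat, and turns cholesterol into bile acids. In inflammation, cytokines such as interleukin 6 and interleukin 1 act on hepatocytes through STAT3, NF-κB and C/EBP transcription factors and raise the acute phase proteins, which are secreted into the blood. The liver also holds a large resident macrophage population, the Kupffer cells, in its sinusoids. During fasting, the nuclear receptor PPAR-α raises the enzymes that break fatty acids down.

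The arrays were alike in their medians, which lay between 3.73 and 3.76. The control probe sets for the added bioB, bioC, bioD and cre transcripts were all lower at 21 than at 13 months, by -0.31 to -0.08. Those for the added dap, thr, phe and lys transcripts were mostly lower too, with differences from -0.49 to 0.14. Several list medians given below are of similar size to these control differences, whose cause was not tested. The 3′ probe set of Gapdh was 0.11 to 0.21 brighter than its 5′ probe set, with the lowest value at 21 months, and the same pair for Actb differed by 1.01 to 1.16. The female transcript Xist differed by -0.09 between 21 and 13 months, and the Y-linked genes Eif2s3y, Kdm5d and Uty by -0.03, 0.05 and -0.09. Hepatocyte markers differed little: 12 were measured, their median difference was 0.01, none was 1.5-fold higher or lower, and their summed linear level was 70671 at 13 months and 71455 at 21 months. Several of them, such as albumin (Alb) at 13.49 and 13.48, lie near the highest value of any probe set, 13.7, where an array responds little to a change, and these carry most of the sum. The less bright members Hnf4a, Tat, Pck1 and Apob differed by 0.01, 0.05, 0.01 and -0.17. The largest difference among the 12 was 0.37, in the fibrinogen gene Fgb.

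Most genes were at nearly the same level at both ages, and the larger differences were mostly toward higher expression at 21 months. Of the 11587 genes, 48.9% differed by no more than 0.1 and 75.9% by no more than 0.2, and the median difference was 0.01. Above 0 were 5837 genes and below 0 were 5377. At least 2-fold higher at 21 months were 36 genes, 0.311% of all, and 6 genes, or 0.0518%, were at least 2-fold lower. At 1.5-fold the counts were 170 genes higher, which is 1.47%, and 53 lower, which is 0.457%. These counts over all kept genes are the background for the lists below. The pair of younger ages, 8 against 4 months, shares no array with this comparison. There 12 genes (0.104%) were 2-fold higher and 3 (0.0259%) 2-fold lower, and 58 (0.501%) and 41 (0.354%) were past 1.5-fold. The excess of higher over lower genes was present in each of 4 equal classes of expression level, from 30 higher and 13 lower in the dimmest class to 50 and 16 in the brightest.

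**Figure D1:**
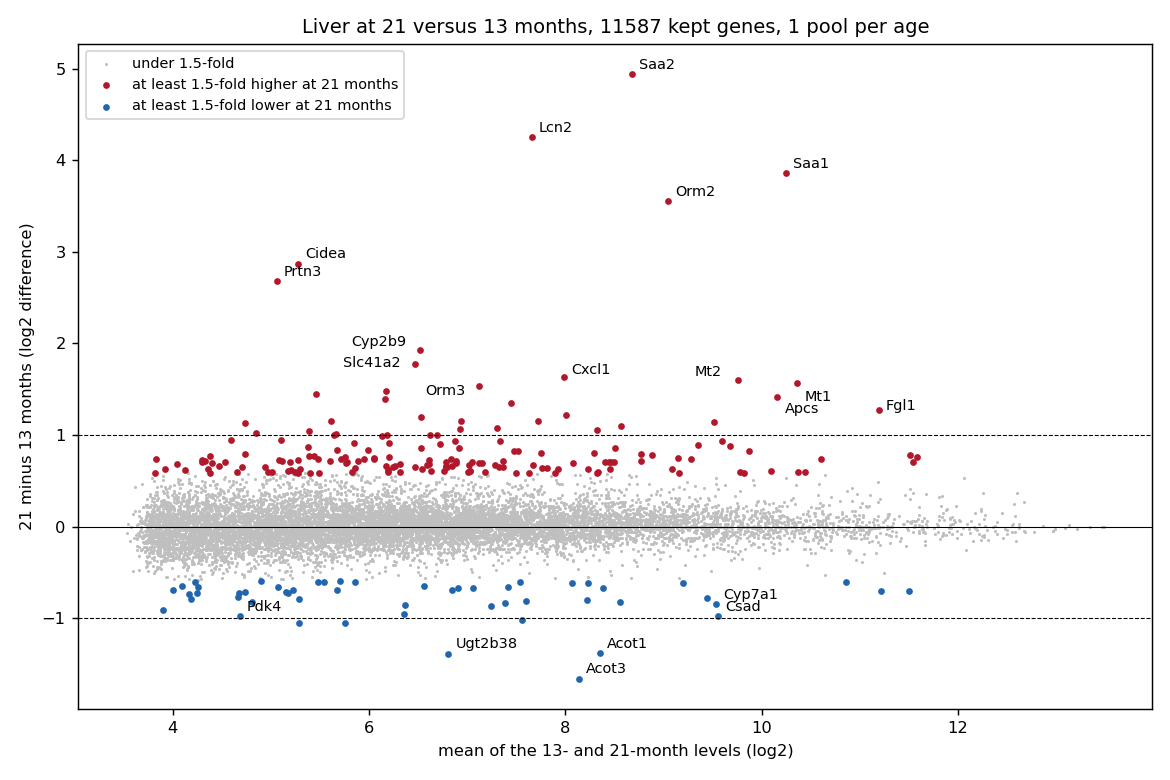
Mean of the 13-month and 21-month log2 levels of each of the 11587 kept genes (horizontal axis) against the log2 difference, 21 minus 13 months (vertical axis); red and blue points are at least 1.5-fold higher or lower and dashed lines mark 2-fold. The cloud is narrow around 0 and a few points, led by Saa2 at 4.94, lie far above it, while the lowest point is Acot3 at -1.66.

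The levels at 4 and 8 months show which of the 2 ages stood away from the others. Of the 36 genes at least 2-fold higher, 33 were at 21 months above all 3 younger ages. The 3 exceptions were Ppp1r3c, Nr0b2 and Angptl8, whose 13-month levels lay below the other ages. In 14 of the 36 genes the 13-month level was outside the range of the other 3 ages, and in 9 it lay at or between the 4-month and 8-month levels. At the wider size, 159 of 170 higher genes were above all younger ages, and 41 of 53 lower genes were below them. These genes were picked by their difference between 21 and 13 months. That choice by itself favours an extreme level at one of these ages, so the counts only describe the picked genes. Counting only large gaps, 23 genes were at 21 months at least 2-fold above all 3 younger ages and 1, Ugt2b38, at least 2-fold below. For the 13-month array the same count gave 0 genes above all other ages and 2 below, Ppp1r3c and Bcl6.

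A second probe set is a repeat of the measurement within the same pools. Such a probe set passed the filter for 12 of the 36 higher genes, and for 10 at least 1 such probe set was 1.5-fold higher as well. Among the 10, Ighm and Egfr had several others, which reached down to -0.22 and -0.41. The other probe sets of Erdr1 and Sirpa differed by 0.22 and 0.58. Both lower genes with another probe set, Onecut1 and Usp2, were lower with it as well, at -1.13 and -0.93. Agreement was less at the 1.5-fold size, which the list counts below use. Of 65 higher genes with another probe set, 27 had at least 1 that was also 1.5-fold higher. Among the lower genes this was 10 of 19. At the edge of the 2-fold size, S100a9, Lgals3, Angptl8 and Il13ra1 were just inside, each at 2-fold to the deposited precision, and Cxcl13 was just outside at 0.99.

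Acute phase genes held the largest differences of the comparison. In the old pool 27 of 30 measured members were above their 13-month level and 14 were past 1.5-fold, while none was 1.5-fold lower, with a median difference of 0.45 beside 0.01 for all kept genes and 1.47% of all genes past 1.5-fold. The serum amyloid A proteins Saa1 and Saa2 travel on high-density lipoprotein in inflammation. Saa2 was at 6.55, 6.52, 6.21 and 11.15, which is 30.7-fold higher at 21 than at 13 months, though its probe set can also bind related transcripts. Saa1 was at 8.58, 8.84, 8.32 and 12.18, 14.5-fold higher, and its other probe set differed by 4.14. In both genes the 3 younger ages lay close together and the old pool stood alone. Lcn2, a protein that binds iron-carrying bacterial siderophores and is made by hepatocytes and neutrophils, was at 4.88, 5.34, 5.53 and 9.78, a 19.0-fold difference. Orm2, one of the orosomucoids, plasma proteins that bind basic drugs and lipids, was between 6.73 and 7.27 at the 3 younger ages and at 10.82 at 21 months, 11.7-fold above 13 months.

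The proximal promoters of these 4 genes are printed to show the sequence next to the start site of the genes with the largest differences among those of the acute phase list. They are RefSeq windows of the GRCm38.p6 assembly, from 250 bases before to 50 after the annotated start, 5′ to 3′ on the gene's strand. Capitals mark matches to the C/EBP-like letters TTGCNNAA on either strand.
Saa2, chr7:46751583-46751882, plus strand: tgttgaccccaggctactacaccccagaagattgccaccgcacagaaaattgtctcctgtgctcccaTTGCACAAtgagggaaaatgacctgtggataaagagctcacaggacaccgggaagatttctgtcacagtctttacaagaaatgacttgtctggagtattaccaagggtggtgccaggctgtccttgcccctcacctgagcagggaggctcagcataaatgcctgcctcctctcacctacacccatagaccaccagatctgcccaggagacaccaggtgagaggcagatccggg
Lcn2, chr2:32387690-32387989, minus strand: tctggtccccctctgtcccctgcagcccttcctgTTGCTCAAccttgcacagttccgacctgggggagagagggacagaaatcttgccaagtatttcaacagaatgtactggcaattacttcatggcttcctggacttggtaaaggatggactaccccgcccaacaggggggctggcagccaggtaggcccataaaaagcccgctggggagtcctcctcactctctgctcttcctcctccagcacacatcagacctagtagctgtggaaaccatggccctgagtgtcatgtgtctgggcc
Saa1, chr7:46742931-46743230, minus strand: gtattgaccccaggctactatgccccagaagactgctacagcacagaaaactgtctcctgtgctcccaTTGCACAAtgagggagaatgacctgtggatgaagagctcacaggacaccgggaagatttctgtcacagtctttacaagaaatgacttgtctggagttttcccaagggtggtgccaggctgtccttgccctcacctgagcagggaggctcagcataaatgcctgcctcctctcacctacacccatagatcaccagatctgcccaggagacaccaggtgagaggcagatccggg
Orm2, chr4:63362199-63362498, plus strand: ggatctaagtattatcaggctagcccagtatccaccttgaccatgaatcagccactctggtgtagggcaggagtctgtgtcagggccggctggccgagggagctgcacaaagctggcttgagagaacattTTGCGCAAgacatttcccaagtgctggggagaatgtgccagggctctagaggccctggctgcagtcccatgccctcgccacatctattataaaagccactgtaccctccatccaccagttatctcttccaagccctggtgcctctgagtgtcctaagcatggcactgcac
Each window held 1 match. Of the 9348 kept genes with a RefSeq window, 8.49% held one, against 25 of the 126 genes at least 1.5-fold higher (19.8%), 2 of the 40 at least 1.5-fold lower (5%) and 11 of 23 acute phase genes (47.8%). The palindromic STAT letters TTCNNNGAA were in 6.79% of all windows and in 8 of the 23 acute phase windows (34.8%). They were in 17 of the 126 higher (13.5%) and 1 of the 40 lower genes (2.5%). The κB-like letters GGNNTTTCC were in 5.78% of all and in 3 of the 23 (13.0%). Their shares were alike in the higher and lower genes, at 13 of 126 (10.3%) and 4 of 40 (10%). The higher and acute phase sets overlap, since genes such as Saa1, Saa2, Lcn2 and Orm2 are in both. The windows of Saa1 and Saa2 are also nearly alike in their letters. A match is a description of the letters and not a binding site.

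Further members of the same families were higher by less. Orm3 was at 5.82, 5.60, 6.35 and 7.89, a difference of 1.54, while Orm1, the brightest orosomucoid probe set, was at 11.21, 11.06, 11.19 and 11.90, a difference of 0.71. Saa3 differed by 0.83 and Saa4, which is expressed without inflammation, by 0.60. All 4 serum amyloid genes and all 3 orosomucoid genes were thus past 1.5-fold. Of the pentraxins, Apcs, which encodes serum amyloid P, a main acute phase protein of the mouse, was at 9.42, 9.23, 9.45 and 10.87, a 2.68-fold difference. Crp, the acute phase pentraxin of humans, differed by 0.10. Steap4, a metalloreductase, was higher by 0.93, and the protease inhibitor gene Serpina3n by 0.83. The inter-alpha-trypsin inhibitor gene Itih3 differed by 0.78, Lrg1, a leucine-rich plasma glycoprotein, by 0.76, and the lipopolysaccharide co-receptor Cd14 by 0.60.

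Other classical acute phase genes differed less. Haptoglobin, which binds free hemoglobin, was near the top of the array's range, with Hp at 12.31, 12.35, 12.42 and 12.79, a difference of 0.37. The fibrinogen chains Fgb, Fgg and Fga differed by 0.37, 0.25 and 0.19. The hepcidin genes, which encode the hormone that lowers iron export, differed by 0.15 for Hamp and 0.33 for Hamp2. Below 0 were Il1rn at -0.08, Vnn1 at -0.01 and A2m at -0.45. The secreted proteins that fall in a typical acute phase were measured too: of 8 carrier protein genes, among them albumin and transthyretin, none was past 1.5-fold either way, with differences from -0.12 to 0.12. Of the 8, 6 had a level above 12 at both ages, where the array may not show a fall, and the less bright Serpina6 and Apom differed by 0.12 and 0.04. Fgl1, a fibrinogen-like protein secreted by hepatocytes, was in no list and was at 10.48, 10.27, 10.56 and 11.83, 2.41-fold higher. Prg4, a secreted lubricating proteoglycan, differed by 1.22.

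**Figure D2:**
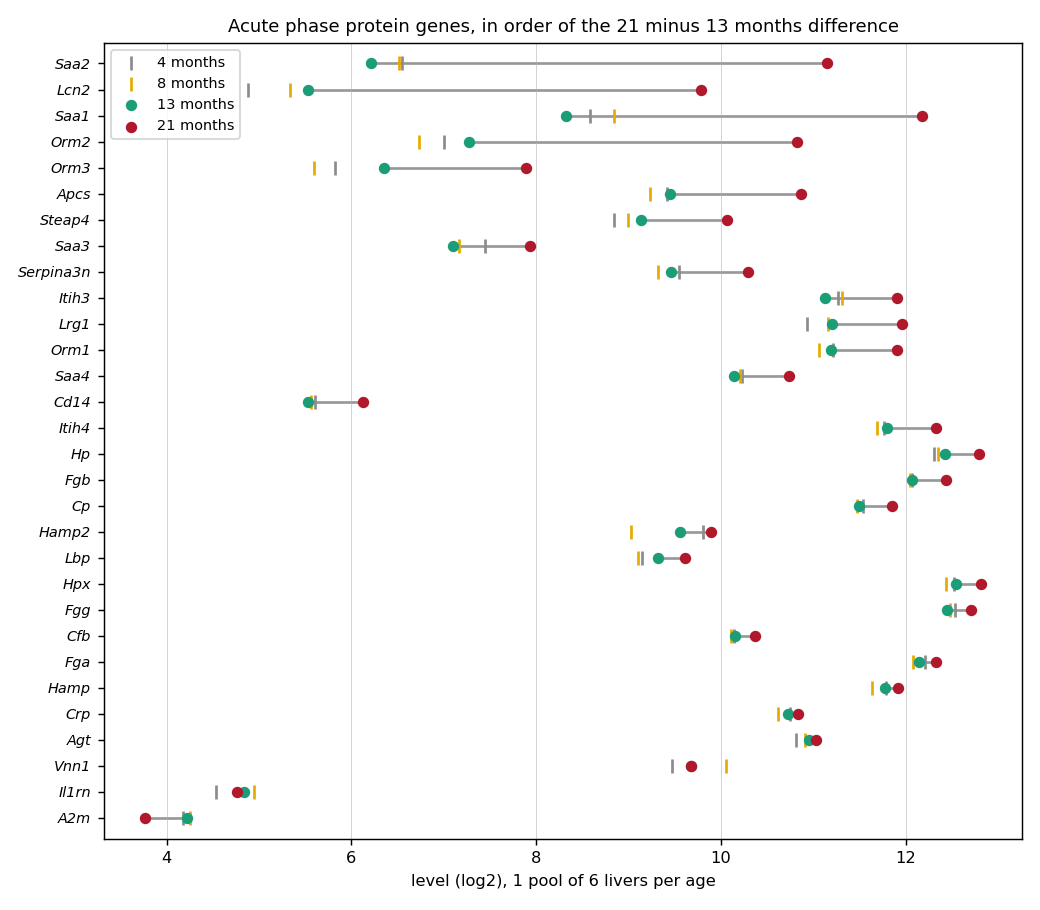
Log2 level of the 30 measured acute phase genes, ordered by their difference; large dots are the 13-month and 21-month arrays, joined by a line, and small ticks are the 4-month and 8-month arrays. The lines of Saa2, Lcn2, Saa1 and Orm2 are the longest, and for most other members the younger ages lie at or near the 13-month dot.

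Metallothioneins, small proteins that bind zinc and copper and are induced by metals, glucocorticoids and inflammation, were higher in the old pool. Mt2 was at 8.37, 8.01, 8.96 and 10.56, a 3.03-fold difference, and Mt1 at 9.37, 9.07, 9.58 and 11.15, a 2.97-fold difference with its brightest probe set and 0.78 with another. Of 13 measured metal handling genes 5 were at least 1.5-fold higher, beside 1.47% of all genes, and none lower, with a median of 0.41. The others past 1.5-fold were Steap4, the macrophage metal transporter Slc11a1, at 6.02, 5.80, 5.75 and 6.66, and heme oxygenase, Hmox1, at 6.14, 5.96, 5.84 and 6.50. The iron exporter Slc40a1 differed by 0.10.

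The windows of the 2 metallothionein genes are shown because the metal response element is what these genes are known for. Capitals mark matches on either strand to the letters TGCNCNC. These are looser than the element's core TGCRCNC, where R is A or G.
Mt2, chr8:94172368-94172667, plus strand: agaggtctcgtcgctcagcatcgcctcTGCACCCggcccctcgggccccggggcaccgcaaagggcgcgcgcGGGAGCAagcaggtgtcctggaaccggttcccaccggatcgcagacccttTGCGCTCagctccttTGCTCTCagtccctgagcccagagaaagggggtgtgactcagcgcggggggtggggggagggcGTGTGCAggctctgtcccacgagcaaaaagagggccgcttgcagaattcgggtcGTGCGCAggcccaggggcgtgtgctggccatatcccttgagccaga
Mt1, chr8:94178839-94179138, plus strand: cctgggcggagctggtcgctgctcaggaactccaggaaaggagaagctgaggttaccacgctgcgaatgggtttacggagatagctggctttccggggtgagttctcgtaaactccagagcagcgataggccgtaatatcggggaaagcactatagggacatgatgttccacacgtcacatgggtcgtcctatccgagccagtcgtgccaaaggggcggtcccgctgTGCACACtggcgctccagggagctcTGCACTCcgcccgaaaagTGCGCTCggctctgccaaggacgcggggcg
The Mt2 window held 6 matches and the Mt1 window 3. In the Mt2 window TGCTCTC and GGGAGCA, which reads TGCTCCC on the other strand, match the looser letters but not TGCRCNC. The searched letters TGCNCNC are short and common, since 59.7% of all kept windows held at least 1 match. So did 69 of the 126 windows of 1.5-fold higher genes (54.8%) and 23 of the 40 of lower genes (57.5%).

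Macrophage markers were the cell type list with the highest median difference. At the 1.5-fold size 18 of 29 measured markers were higher, beside 1.47% of all genes, and none lower. Above 0 were 27, and the median was 0.60 beside 0.01 for all genes. Adgre1, which encodes the surface antigen used to define mouse macrophages, was at 6.44, 5.97, 6.27 and 7.17. The lysozyme genes Lyz1 and Lyz2 differed by 0.89 and 0.86, but the Lyz1 probe set can bind both. The Clec7a receptor for fungal glucans was at 6.35, 6.41, 6.39 and 7.46, and the galactose lectin Lgals3 at 6.07, 6.06, 6.19 and 7.19. In these 5 genes the old pool was above each younger one, and the younger pools were within 0.5 of each other.

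Markers of resident Kupffer cells were among the higher ones. Cd5l, a scavenger receptor family protein secreted by them, was at 9.09, 8.63, 9.24 and 10.12, and Timd4, a receptor for dying cells, at 5.43, 5.06, 5.57 and 6.41. The complement receptor Vsig4 was at 8.55, 8.16, 8.41 and 9.13, and the lectin Clec4f differed by 0.57. The receptor for macrophage colony stimulating factor, Csf1r, differed by 0.60. A pair of scavenger receptor genes went against the list: Marco was at 5.88, 4.42, 6.75 and 6.46, and Cd163 at 6.59, 6.12, 6.75 and 6.25. The lipid receptor Trem2 and the integrin Itgax, both dim on these arrays, differed by 0.15 and 0.11, and the oxidase subunit Cybb and the antibody receptor Fcgr1 by 0.86 and 0.72. Gpnmb was below the filter.

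MHC class II genes, which present antigen to T cells and are expressed by macrophages, dendritic cells and B cells, were higher by similar amounts. H2-Ab1 was at 7.48, 7.03, 7.89 and 8.69, Cd74 at 8.19, 7.81, 8.49 and 9.27, H2-Aa at 8.52, 8.13, 8.77 and 9.52 and H2-Eb1 at 7.66, 7.24, 8.12 and 8.82. These 4 of 7 measured members were past 1.5-fold, where 1.47% of all genes were 1.5-fold higher. None was 1.5-fold lower, and the median was 0.70. In each of the 4 the 8-month level was the lowest and 13 months already lay above 4 months. The other probe sets of H2-Ab1 differed by 0.81 to 0.88 and those of H2-Aa by 0.75 to 0.82. The peptide loading gene H2-DMa differed by 0.37, and H2-DMb2 and H2-Eb2 by -0.12 and -0.27, while the class II transactivator Ciita was below the filter.

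**Figure D3:**
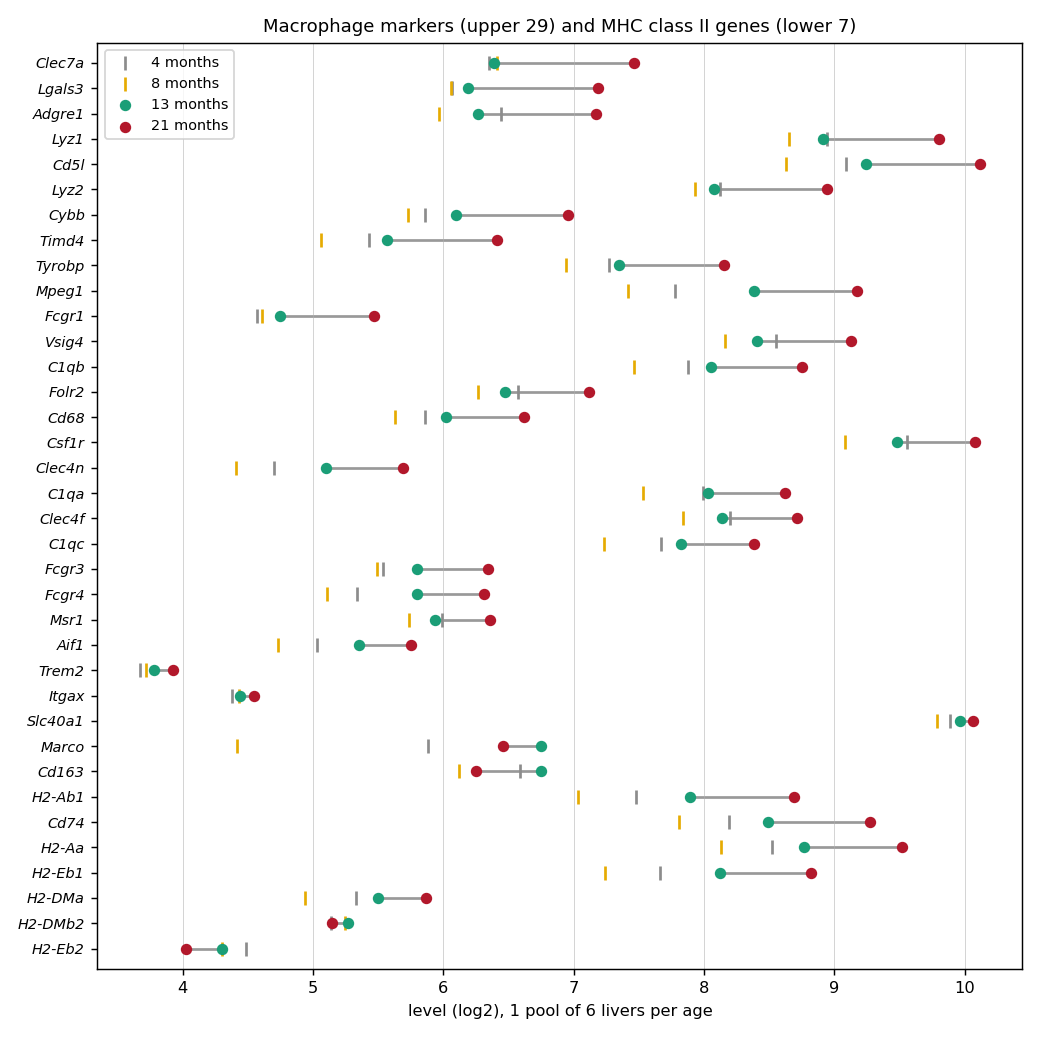
Log2 level of 29 macrophage markers and 7 MHC class II genes, ordered by their difference within each list; large dots are the 13-month and 21-month arrays and small ticks the 4-month and 8-month arrays. Most lines run to the right at 21 months, by a median of 0.60 and 0.70, and those of Cd163, Marco, H2-DMb2 and H2-Eb2 run to the left.

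In bulk tissue a higher level of a cell type's markers can come from more such cells or from more RNA per cell, and these cannot be told apart here. The summed linear level of the macrophage markers was 5666, 4547, 5967 and 9150 at the 4 ages. For sinusoidal endothelium, whose cells line the same vessels, the sum was 2470 at 13 months and 2690 at 21 months, and none of its 14 markers was past 1.5-fold. Dendritic cell markers summed to 540 and 527 and had a median of 0.03 over 6 genes. Most of these sums was Bst2, also in the interferon list, at 8.55 and 8.54. T and NK cell markers had a median of -0.01 over 7 genes, with sums of 162 and 170.

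Markers of neutrophils and of antibody-producing cells were higher in part. Prtn3, a granule protease of neutrophil precursors, was at 3.67, 3.74, 3.72 and 6.40. Its 13-month level lay just below the filter, where RMA compresses differences. The calprotectin subunits S100a8 and S100a9, abundant in neutrophils and monocytes, were at 5.50, 5.41, 6.22 and 6.85 and at 4.69, 4.53, 5.14 and 6.14. Other granule genes were not past 1.5-fold: Ngp differed by 0.27, Ltf by 0.03 and Elane by 0.02, and Camp, Mpo, Mmp8 and Mmp9 were below the filter. In all 4 of 8 measured neutrophil markers were past 1.5-fold, where 1.47% of all genes were. Of the 4, Lcn2 is also an acute phase gene of hepatocytes, and Prtn3 passed the filter only through its 21-month level, so 2 of the other 6 markers, S100a8 and S100a9, were past 1.5-fold, with a median of 0.16 over the 6. The list's sum was 258.8 at 13 months and 1244 at 21 months, and most of the latter was Lcn2, since without it the sums were 212.6 and 364.8.

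Of 10 markers of B cells and plasma cells 3 were at least 1.5-fold higher, beside 1.47% of all genes. These 3 encode antibody chains or join them. Jchain, which links IgM and IgA into polymers, was at 4.60, 4.95, 4.73 and 6.18, and Igha at 7.07, 6.81, 6.36 and 7.51, with its other probe sets between 1.25 and 1.45. The IgM heavy chain Ighm was at 5.46, 6.41, 7.15 and 8.30 with its brightest probe set, but 5 others differed by -0.22 to 1.17. The light chain gene Igkv8-30, in no list, differed by 1.04. The other 7 members were within 1.5-fold, both the B cell genes Ms4a1 at -0.13, Cd79b at -0.10, Pax5 at -0.20 and Cd22 at 0.09 and the plasma cell genes Mzb1 at 0.02, Sdc1 at 0.17 and Xbp1 at 0.28, and Pou2af1 was below the filter. The list summed to 2871 at 13 months and 3660 at 21 months, mostly from Xbp1 and Sdc1, which hepatocytes also express, and without these the sums were 336.5 and 652.3. The part of these cells in the acute phase and macrophage results was not tested.

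Interferon response genes were nearly all somewhat higher. Of 35 measured genes 33 were above 0, where 5837 of all 11587 kept genes were. At least 1.5-fold higher were 7, beside 1.47% of all genes, and none was 1.5-fold lower. The median was 0.48 beside 0.01. The RNA-binding Ifit1 was at 4.19, 3.94, 4.34 and 5.13, Usp18, which removes the ubiquitin-like modifier of this response, at 5.70, 4.97, 5.82 and 6.58, and Ifi27l2a at 5.34, 4.91, 5.68 and 6.43. The transcription factor Irf8 of macrophages and dendritic cells differed by 0.72, Oasl2 by 0.71, the GTPase Ifi47 by 0.70 and Trim30a by 0.68. In these 7 genes the old pool had the highest level. Smaller were Irf7, a master regulator of type I interferon, at 0.35, and the GTPase Igtp at 0.07. Zbp1 and Bst2 were the 2 members below 0, at -0.10 and -0.01. Several of these genes are expressed in macrophages, whose markers are given above, and their part in this result was not tested.

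The window of Ifit1 is shown as the textbook promoter of this response, with capitals for matches to the ISRE-like letters TTTCNNTTT on either strand.
Ifit1, chr19:34640639-34640938, plus strand: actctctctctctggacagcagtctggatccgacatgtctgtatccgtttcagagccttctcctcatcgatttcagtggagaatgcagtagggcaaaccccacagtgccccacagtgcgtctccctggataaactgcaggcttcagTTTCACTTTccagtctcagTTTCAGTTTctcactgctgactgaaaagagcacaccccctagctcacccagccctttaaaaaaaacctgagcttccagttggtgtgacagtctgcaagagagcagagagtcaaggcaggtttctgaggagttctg
It held 2 matches. Such a match was in 7.72% of all kept windows, in 21 of the 126 windows of 1.5-fold higher genes (16.7%), in 2 of 40 of the lower genes (5%) and in 21 of 27 windows of the interferon list (77.8%), whose members are known by this element.

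MHC class I and immunoproteasome genes, which hepatocytes also express, were all above 0 but none of 13 was past 1.5-fold, with a median of 0.18. Complement and clotting genes had a median of 0.20, with 26 of 27 above 0 and 2 past 1.5-fold, the C1q chains C1qb and C1qa, which macrophages make. Of all 11587 genes 5837 were above 0. Chemokine, cytokine and adhesion genes past 1.5-fold numbered 6 of 18, all higher, with a median of 0.24. Among all genes 1.47% were 1.5-fold higher. Cxcl1, which attracts neutrophils, was at 7.35, 7.19, 7.17 and 8.80, 3.10-fold higher, and its other probe sets differed by 1.20 to 2.47. Cxcl13, which attracts B cells, was at 5.78, 5.59, 5.64 and 6.63. The leukocyte adhesion molecules Vcam1 and Icam1 differed by 0.71 and 0.70 and the interferon-γ-induced Cxcl9 by 0.60. The other probe sets of Vcam1 differed by 0.38 and 0.44 and that of Cxcl9 by 0.34, all under 1.5-fold. The cytokine genes Il1b and Tnf were near their 13-month level, at 0.08 and 0.06.

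Genes that signal downstream of these cytokines went both ways. Among 20 measured NF-κB and JAK-STAT genes there were 4 past 1.5-fold upward and 2 downward, with a median of 0.23. Over all genes the shares were 1.47% upward and 0.457% downward. Nfkbiz, a nuclear cofactor of NF-κB, was at 5.53, 5.51, 5.39 and 6.30, but its other probe sets differed by only 0.19 and 0.33. The NF-κB brake Tnfaip3 was at 4.53, 4.53, 4.14 and 4.80, and the interleukin 1 receptor Il1r1 at 6.75, 6.48, 6.14 and 6.79. Socs3, the brake on interleukin 6 signalling, was at 6.70, 7.07, 6.46 and 7.11, but its other probe sets differed by only 0.26 and 0.33. For all 4 of these genes the 13-month level was the lowest of the 4 ages, so part of the difference lies there. Stat3 itself was at 8.30, 8.09, 8.37 and 8.93. The lower members were Socs2 and Cish, both targets of STAT5 downstream of growth hormone.

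Genes of fatty acid oxidation and other PPAR-α targets were lower at 21 months. Of 26 measured members 25 were below 0, where 5377 of all 11587 genes were. At least 1.5-fold lower were 7 of the 26, beside 0.457% of all genes, and none was 1.5-fold higher. The median was -0.27 beside 0.01. The acyl-CoA thioesterases, which release free fatty acids from coenzyme A, had the largest differences. The peroxisomal Acot3 was at 7.95, 8.46, 8.97 and 7.31, 3.16-fold lower, and was the gene with the largest lower difference of all. The cytosolic Acot1 was at 8.63, 9.21, 9.04 and 7.66, 2.60-fold lower, and the mitochondrial Acot2 went from 7.24 at 13 months to 6.57, a difference of -0.67. These 3 genes are close relatives, so their probes may bind each other's transcripts, and the Acot3 probe set is of a kind that can match more than 1 gene. Acot4 differed by -0.56. In Acot3 the level was higher at each age up to 13 months, so the 13-month pool was its highest.

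The other members past 1.5-fold span ketogenic signals, fuel choice and ω-oxidation. Pdk4, which turns off glucose oxidation in fasting, was at 4.69, 5.23, 5.17 and 4.19. The hormone gene Fgf21 was at 4.93, 5.23, 5.22 and 4.40. The fatty acid hydroxylases Cyp4a31, at 8.16, 8.28, 8.00 and 7.19, and Cyp4a14, at 11.80, 11.91, 11.85 and 11.15, are also members of one gene family. In all of these the 21-month level lay below each younger age. The peroxisomal enzyme Ehhadh differed by -0.51, and the mitochondrial β-oxidation genes Hadha and Acadm by -0.30 and -0.29. The receptor gene Ppara was at -0.14. The single member above 0 was Cpt1a, which carries fatty acids into mitochondria, at 10.51, 10.62, 10.42 and 10.49. Oxidative phosphorylation genes had a median of -0.07, with 29 of 35 below 0 and none past 1.5-fold. Of all 11587 genes 5377 were below 0.

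**Figure D4:**
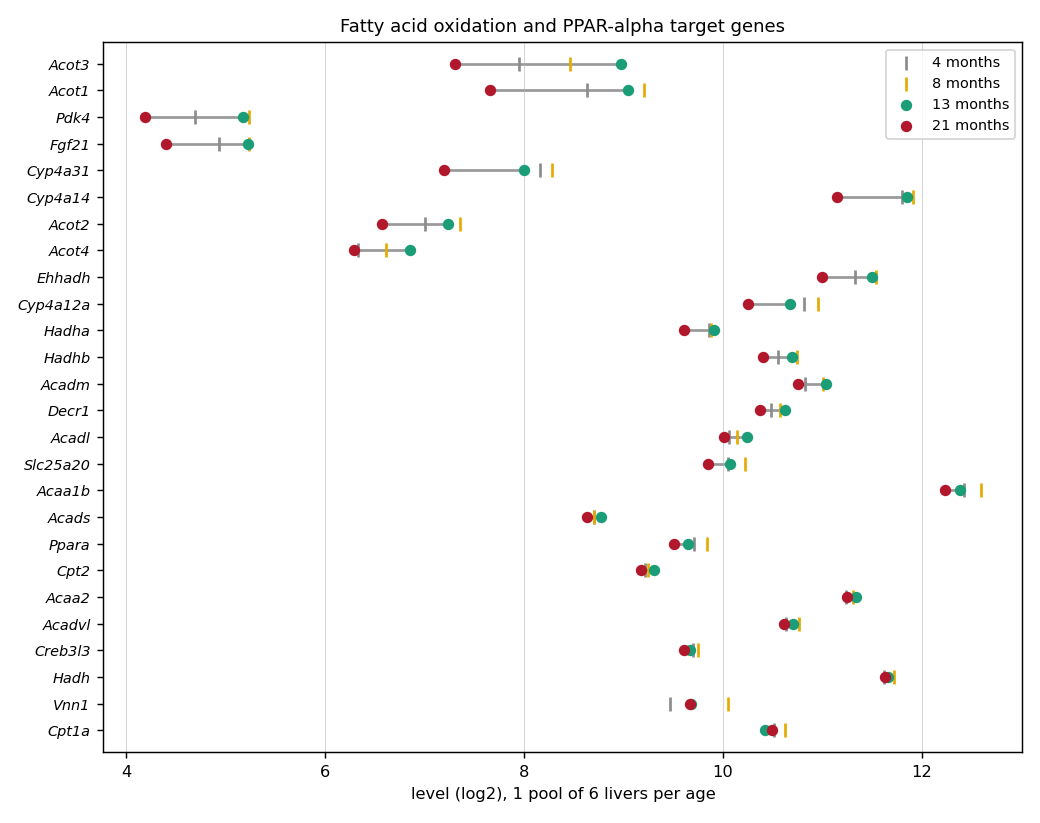
Log2 level of 26 genes of fatty acid oxidation and PPAR-α targets, ordered by their difference; large dots are the 13-month and 21-month arrays and small ticks the 4-month and 8-month arrays. The lines run to the left in 25 of the 26 genes, by a median of -0.27, and are longest for Acot3 and Acot1.

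Lipid storage and synthesis did not move as one list. Cidea, a lipid droplet protein that fuses droplets, was at 2.69, 3.87, 3.84 and 6.71. Its levels at the 3 younger ages were near or below the filter and may be background, so no exact fold is given. Cidea was the single one of 17 lipid droplet and PPAR-γ target genes past 1.5-fold, and the list's median was -0.04. The droplet coat gene Plin2 differed by 0.11, the fatty acid transporter Cd36 by 0.29, Plin5 by -0.32 and Pparg by -0.12, and Cidec was below the filter. The 3 measured adipose tissue markers differed by 0.05 to 0.10. Among them the Car3 probe set, at 12.37 and 12.42 at 13 and 21 months, was near the top of the array's range. Other probe sets of Car3 differed by 0.27 to 0.63. Fabp5, a fatty acid binding protein, was at 7.44, 7.16, 6.76 and 7.84.

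The median of 21 fatty acid synthesis genes was 0.08, none was 1.5-fold lower, and 1 was 1.5-fold higher, beside 1.47% of all genes. It was fatty acid synthase, Fasn, at 8.19, 8.23, 8.15 and 8.85. The lipogenic regulators Thrsp and Srebf1 differed by 0.51 and 0.34 and the NADPH-producing Me1 by -0.35. Cholesterol synthesis genes had a median of 0.19, and none was past 1.5-fold. Above 0 were 17 of 21, where 5837 of all 11587 genes were. The highest was squalene epoxidase, Sqle, at 7.45, 7.59, 7.73 and 8.20, and the lowest the regulator Srebf2 at -0.24. The secreted lipase inhibitor Angptl8, raised by feeding, was at 6.48, 7.13, 6.12 and 7.12, with 8 and 21 months alike.

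Genes of bile acid, glycogen and sulfur metabolism held single differences. Cyp7a1, whose enzyme limits the rate of bile acid synthesis, was at 9.52, 8.90, 9.96 and 9.11, a difference of -0.85, and its other probe set differed by -0.91. Nr0b2, the nuclear receptor that represses Cyp7a1, was at 8.93, 8.67, 7.80 and 8.85. In both genes the 13-month array stood apart, as the highest for Cyp7a1 and the lowest for Nr0b2. Cyp8b1, which makes cholic acid, differed by -0.53, and none of the other 19 measured bile acid genes was past 1.5-fold, with a median of -0.01. Ppp1r3c, which targets a phosphatase to glycogen, was at 8.33, 7.82, 6.77 and 8.12, with another probe set at 0.70, and its relative Ppp1r3b at 9.17, 8.66, 8.40 and 8.94. Ppp1r3g of the same family was at 4.60, 4.83, 5.05 and 4.28. Csad, which makes the taurine precursor hypotaurine, was at 9.84, 10.07, 10.05 and 9.07, 1.97-fold lower and below every younger age.

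Growth hormone acts on the liver through STAT5 and sets many sex differences of liver genes. The 15 genes of this axis included 2 that were 1.5-fold higher and 3 that were 1.5-fold lower, beside 1.47% and 0.457% of all genes. Bcl6, a repressor that opposes STAT5 and is higher in males, was at 7.04, 5.93 and 7.13 from 8 months on, with its 4-month level just under that at 8 months, and the STAT5 targets Socs2 and Cish were at 7.67, 8.24, 8.62 and 7.82 and at 7.26, 7.71, 7.75 and 7.09. The 13-month array held the lowest Bcl6 and the highest Socs2. Igf1, the main hormone of this axis, was level at 11.08, 11.04, 11.05 and 11.07. Igfbp2, which binds it, was at 11.10, 10.90, 11.16 and 10.55. The growth hormone receptor Ghr differed by 0.32.

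Sex-dependent genes went both ways with no common shift. The 18 male-predominant genes had a median of -0.02 and the 13 female-predominant ones -0.05. Of the male-predominant genes Egfr, the epidermal growth factor receptor, was at 9.27, 9.60, 8.94 and 10.08, but its other probe sets differed by -0.41 to 1.07. Ugt2b38, a glucuronosyltransferase, was at 7.52, 8.05, 7.50 and 6.11, 2.62-fold lower and the single gene at least 2-fold below all 3 younger ages. The steroid dehydrogenase Hsd3b5 differed by 0.02 and the transporter Slco1a1 by -0.28. Of the female-predominant genes the P450 Cyp2b9 was at 3.69, 3.56, 5.55 and 7.48, below the filter at the 2 youngest ages, and its relative Cyp2b13 was below the filter. Slc22a26 differed by 0.60 and Abcd2 by 0.46, while Acot3, also in this list, was the lowest.

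Clock genes, whose transcripts cycle over the day, had a median of -0.20 over 19 members, with 1 at least 1.5-fold higher and 3 lower. Over all genes these shares were 1.47% and 0.457%. Usp2, a clock output, was at 6.92, 7.50, 8.07 and 7.05, Wee1 at 6.13, 7.01, 7.19 and 6.50, and Per2 at 5.24, 5.36, 5.84 and 5.24. Other probe sets of Per2 differed by -0.11 and -0.07. Dbp was at 7.98, 9.07, 9.14 and 8.79 and Arntl, which peaks near the opposite phase, at 6.09, 5.66, 5.44 and 5.85. Nr1d1, a repressor of Arntl, differed by 0.38, and Bhlhe40, another repressor within the clock, by 0.63. The feeding state of the mice at collection is not stated in the labels either. A different hour or feeding state cannot be told apart from age, neither for these genes nor for Nr0b2, Cyp7a1, Ppp1r3c and Angptl8, the PPAR-α targets such as Pdk4, Fgf21, Acot1 and Cyp4a14, or the lipogenic genes Fasn and Thrsp, all of which respond to feeding, fasting or the time of day.

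Stress genes differed in part. Of 25 genes of the unfolded protein response 21 were above 0, where 5837 of all 11587 genes were. The list had a median of 0.24 and 1 member past 1.5-fold, the chaperone Dnajb9 at 10.07, 9.81, 9.53 and 10.12. The main chaperone of the endoplasmic reticulum, Hspa5, was at 11.53, 11.61, 11.36 and 11.73, and Manf differed by 0.46. Heat shock proteins had a median of -0.10, with 14 of 19 below 0, where 5377 of all 11587 genes were. The single member past 1.5-fold was Hspb1, at 8.48, 8.86, 8.72 and 8.05, beside 0.457% of all genes 1.5-fold lower. Hspa1b was at 9.94, 9.95, 8.40 and 8.66, so its lower level was present at 13 months. Of 21 glucocorticoid and stress induced genes 4 were 1.5-fold higher, Lcn2, Mt1, Mt2 and Zbtb16, beside 1.47% of all genes, with a median of 0.05. Of the immediate early genes Fos was at 7.84, 7.27, 7.07 and 7.89 and Myc, a growth regulator, at 6.57, 6.43, 6.84 and 5.88.

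Matrix genes had a median of 0.24 over 28 members, with 21 above 0 and 2 at least 1.5-fold higher. Of all 11587 genes 5837 were above 0 and 1.47% were 1.5-fold higher. The basement membrane collagen Col4a1 was at 6.95, 6.63, 6.70 and 7.40 and the fibrillar collagen Col3a1 at 7.06, 6.71, 6.54 and 7.23. Col1a2 differed by 0.55 and the matrix protease Mmp2 by -0.32. Markers of stellate cells and fibroblasts, the main source of these collagens, had a median of 0.19 over 14 genes. Their sum was 2489 at 13 months and 2957 at 21 months. Col3a1, Dcn and Lum are in both the marker list and the matrix list, so the lists are not separate measurements. The part of these cells in the matrix values was not tested. Of 27 autophagy and lysosome genes 4 were 1.5-fold higher, beside 1.47% of all genes, with a median of 0.06. The 4 lysosome genes included the cathepsin Ctss of antigen-presenting cells, at 8.66, 8.29, 8.91 and 9.65. Another was Laptm5, which is expressed mainly in blood cells, at 0.93 with 4 other probe sets between -0.13 and 0.24.

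Several lists showed little difference. None of 15 p53 target and senescence genes was past 1.5-fold, with a median of 0.11 and a highest value of 0.37, and none of 13 cell cycle genes was, with a median of -0.04. The 27 proteasome genes lay between -0.19 and 0.09 and the 20 cytosolic ribosomal protein genes between -0.08 and 0.11. Sirtuin and NAD metabolism genes had a median of 0.00 over 19 members. Of 22 cytochromes P450 of xenobiotic metabolism 1, Cyp2b9, was past 1.5-fold, and the nuclear receptors of the same list, Nr1i2 and Nr1i3, were at -0.18 and -0.27, and of 22 glutathione transferase and NRF2 target genes 1, Gstm3 at 0.59. Genes of the urea cycle and of amino acid breakdown had a median of -0.06 over 22 members, with Etnppl, a phospholyase, as the single one past 1.5-fold, at -0.62.

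**Figure D5:**
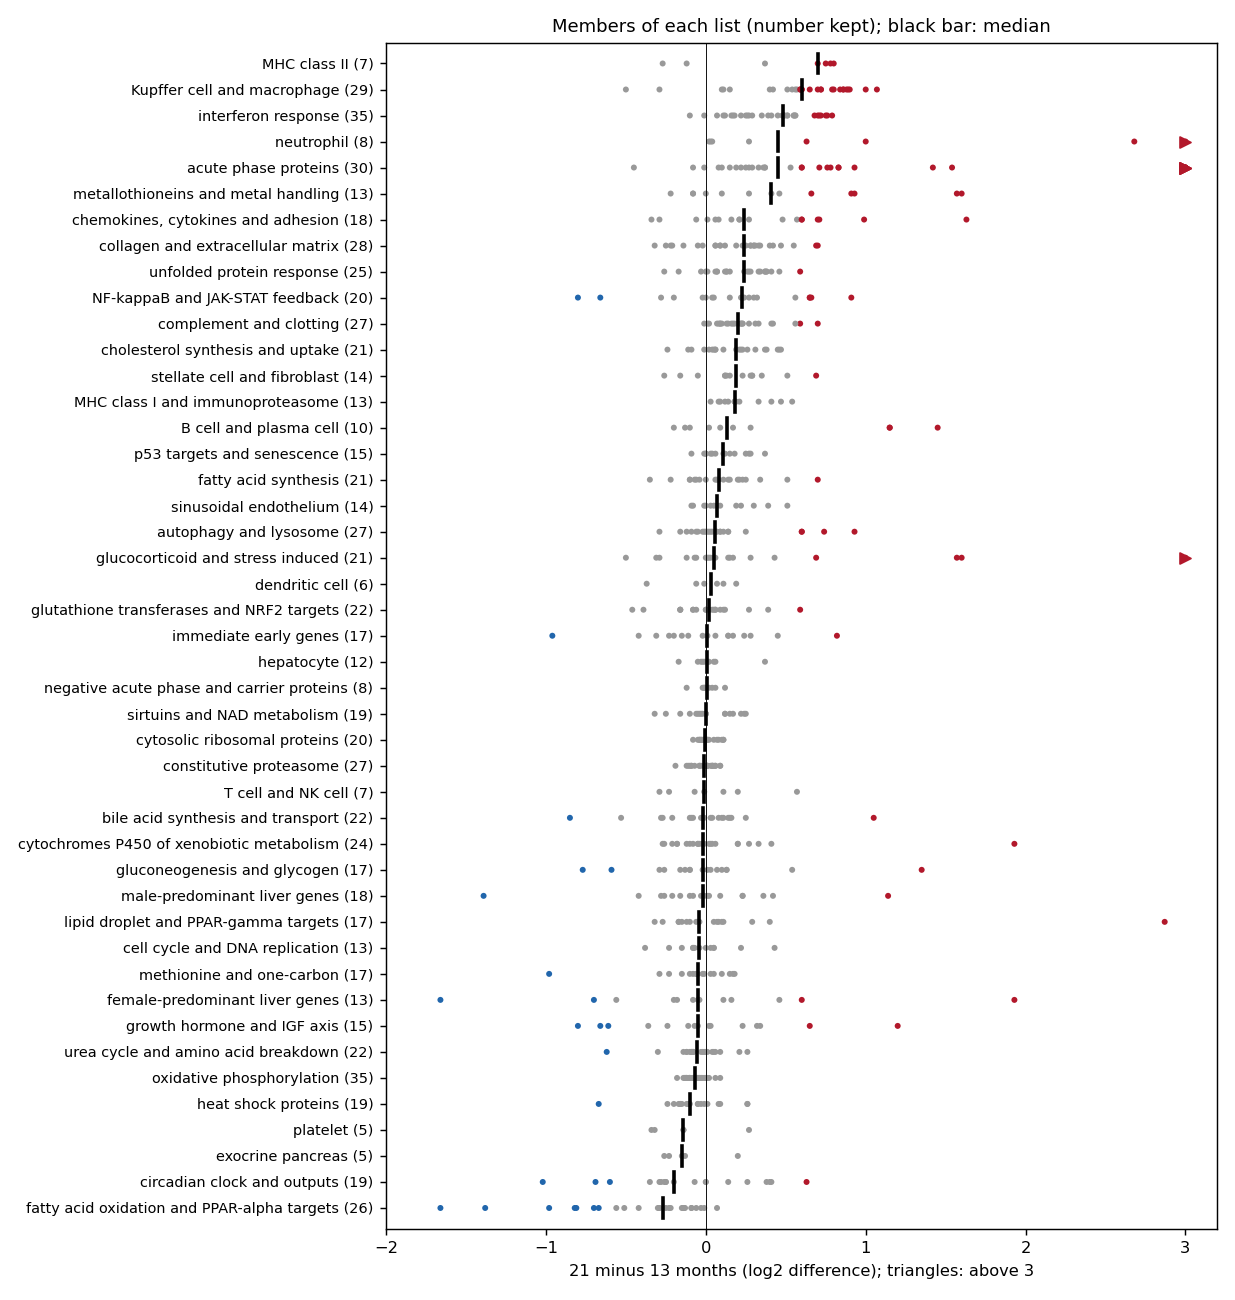
Log2 difference, 21 minus 13 months, of each measured member (points) of every gene list and cell type marker list with at least 5 members; black bars are medians and triangles are members above 3. The macrophage, MHC class II, interferon and acute phase lists lie to the right of 0, with medians of 0.60, 0.70, 0.48 and 0.45, fatty acid oxidation lies to the left at -0.27, and proteasome and ribosomal genes lie close to 0.

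Of the 36 genes at least 2-fold higher, 14 were in none of the lists. Besides those given above, Slc41a2, a magnesium transporter of cell membranes, was at 5.58, 5.36, 5.58 and 7.36, a 3.43-fold difference. Scara5, a scavenger receptor that takes up ferritin, was at 4.94, 5.76, 5.04 and 6.19. Sirpa, the macrophage receptor that reads CD47, was at 5.34, 4.90, 5.16 and 6.17. The interleukin 13 receptor chain Il13ra1 was at 5.99, 5.82, 5.68 and 6.68, and the ascorbate-linked membrane reductase Cyb561 at 4.58, 4.37, 4.34 and 5.36. Tceal8 was at 6.63, 5.97, 5.43 and 6.91, so that its old level was near that at 4 months. The poorly described transcripts 9030619P08Rik and AB124611 differed by 1.39 and 1.13. Scara5, Sirpa, Il13ra1, Cyb561, Fabp5, Angptl8 and Erdr1 were chosen for naming after their values were seen. Of the lower genes outside the lists, Onecut1, a liver transcription factor, was at 5.39, 6.15, 6.28 and 5.23, Cyp26b1, which breaks down retinoic acid, at 5.21, 5.96, 5.81 and 4.76, and the nicotinic receptor subunit Chrna2 at 3.81, 4.63, 4.35 and 3.44.

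Several of the higher genes lie side by side in the genome. By the order of genes in the RefSeq table, 20 of the 170 genes at least 1.5-fold higher (11.8%) had a nearest kept neighbour also 1.5-fold higher, where 329 of all 11548 placed genes (2.85%) had such a neighbour. Of the 53 lower genes 4 (7.55%) had a lower neighbour, against 0.909% of all. The runs were Saa3, Saa4, Saa1 and Saa2 on chromosome 7, Orm1, Orm3 and Orm2 on chromosome 4, H2-Ab1, H2-Aa and H2-Eb1 on chromosome 17, Mt2 with Mt1 on chromosome 8, S100a8 with S100a9 on chromosome 3 and Lyz2 with Lyz1 on chromosome 10. These are families of related genes, and for some, such as the lysozymes, a probe set may read both members. The lower runs were Acot2 with Acot1 on chromosome 12 and Cyp4a14 with Cyp4a31 on chromosome 4, also paralogs. Pairs that are not paralogs were Egfr with Plek on chromosome 11 and Bhlhb9 with Tceal8 on chromosome X.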

How the data were processed

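Liver RNA of male C57BL/6J mice was measured on 4 oligonucleotide arrays, 1 per age, each with the pooled RNA of 6 mice per the series description. The authors deposited log2 values for 45101 probe sets, computed with RMA per the submitters' processing notes. This method subtracts background, normalizes across arrays and combines the probes of a set into 1 value. Its version, and which arrays were normalized jointly, are not given in the sources used for this work. Because the normalization makes array distributions alike, a change common to most genes would be hidden, and with no detection calls a level near the filter may be background.

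Gene symbols came from the platform annotation: 64 were controls, 34945 had 1 symbol, 932 several and 9160 none. By gene ID 34741 of the named probe sets were found in a gene table of GRCm38.p6, with 0 symbols changed. For the 9010 of 18193 genes with several probe sets the one with the highest mean was used. List members with no probe set of 1 symbol are not analysed here.

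Groups were taken from the labelled age. The log2 difference, 21 minus 13 months, was counted by sizes of 2-fold and 1.5-fold, and no test was run. Gene lists and cell type markers were chosen with earlier results of these data known, and the same holds for the comparison itself. A list is described by its counts past 1.5-fold and its median, beside all kept genes. A summed linear level is the sum over a list's kept members of 2 to the power of the log2 value, and bright probe sets dominate it.

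The genes named were, by rule, the 20 with the largest positive and the 10 with the largest negative differences, up to 6 members of each list past 1.5-fold (otherwise its highest and lowest member), genes at least 2-fold away from all other ages at 21 or 13 months, and control genes. Other genes were named after their values were seen, to show the range of a list or the rest of the 2-fold genes, and no named gene had another probe set 1.5-fold in the opposite direction. Promoter windows are the first RefSeq entry of each gene, available here for 9348 kept genes, searched on both strands with overlaps kept. The 7 windows shown and the letters marked in them were chosen after the matches were seen.

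Alternatives were the mean over a gene's probe sets, quantile normalization, centring on the median, other filters, a 3-fold size, the mean in place of the median of a list and, chosen after seeing the data, the mean of 4, 8 and 13 months as reference. Sums and medians of lists without single members were likewise chosen after seeing the data. The counting was tested on simulated data. The work was done in Python 3.11.15, numpy 2.4.6, pandas 2.3.3 and matplotlib 3.10.9.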

Additional observations from a re-analysis of the deposited data

How the results depend on the processing

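Sizes are between 2 pools, so neither the spread between mice nor that between arrays is known. With a 3-fold size 10 genes were higher and 1 lower, in place of 36 and 6. With a filter at the 75th percentile of level 112 genes were 1.5-fold higher and 30 lower, in place of 170 and 53, and with no filter 85 were lower. Against the mean of 4, 8 and 13 months, chosen after seeing the data, 3 genes were 2-fold lower, and 52 were 2-fold higher, of which 24 were among the 36. With that reference Bcl6 was at 0.47, Ppp1r3c at 0.48, Nr0b2 at 0.38, Usp2 at -0.45, Cyp7a1 at -0.35 and Socs2 at -0.36, and the clock list had a median of -0.04. The medians of MHC class II, macrophage and interferon genes were then 1.05, 0.81 and 0.69. The cholangiocyte list, with 4 measured genes, turned from 0.195 to -0.14 with that reference, and the exocrine pancreas list from -0.15 to 0.025 with the 75th percentile filter, which left 2 genes. With the mean over probe sets 116 genes were 1.5-fold higher, of which 113 were among the 170, and Ighm differed by 0.18 and Egfr by 0.34. All other counts of genes were within 1.5 times the values given. List medians moved more often. Against the mean of 4, 8 and 13 months 15 moved, besides the cholangiocyte list. The number was 13 with the mean in place of the median and 11 with the mean over probe sets. It was 9 with the 75th percentile filter and 8 with no filter. As a mean, acute phase genes were at 0.95 in place of 0.45, MHC class II at 0.43 in place of 0.70 and fatty acid oxidation at -0.42 in place of -0.27. Of 137 genes named by the rule, 26 moved across the 1.5-fold size with the younger reference, 8 with quantile normalization and 3 with centring, and so did 17 with the mean over probe sets, which put a few of the others below the filter; no gene past 1.5-fold changed sign. The cause of these shifts was not tested. No paired analysis was possible because each age has 1 array.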

Other observations

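Outside the lists, genes expressed mainly in blood cells were also among those at least 1.5-fold higher at 21 months, picked after their values were seen. Spi1, the transcription factor PU.1 of myeloid cells, was at 5.10, 5.10, 5.11 and 5.85 at 4, 8, 13 and 21 months. The integrin chain Itgb2 was at 5.97, 5.70, 6.25 and 6.98, the actin regulator Coro1a at 5.32, 5.11, 5.34 and 6.08, and the signalling ligand Cd48 at 4.32, 3.78, 4.12 and 5.07. The hyaluronan receptor Cd44 was at 6.51, 6.27, 6.49 and 7.35, with its other probe sets between 0.41 and 0.82. In each of these 5 genes the old pool was the highest. Among genes at least 1.5-fold lower, the liver transcription factor Hhex was at 8.77, 8.26, 8.97 and 8.15 and Foxq1 at 6.87, 6.98, 6.88 and 6.23, with its other probe set at -0.69. Retsat, a retinol saturase, was at 11.47, 11.68, 11.57 and 10.87, with its other probe set at -0.87.

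Probe sets without a single gene symbol entered none of the counts above. Of 9160 with no symbol 2476 were above the filter, and 7 of them were at least 2-fold higher and 2 lower at 21 months, with differences from -2.11 to 1.31. Of 932 with several symbols 562 were above the filter, and 2 were 2-fold higher and 1 lower, from -1.65 to 1.19. At 1.5-fold the counts were 29 higher and 18 lower without a symbol, and 12 and 3 with several.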
